A study of Mus musculus and Rattus norvegicus with 6 samples.

Results

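The genes described here are NRF2 itself (Nfe2l2), enzymes that NRF2 is known to induce (Nqo1, Hmox1, Gclc, Gclm, Txnrd1, Srxn1 and Gsr) and the further antioxidant enzymes Cat and Sod2. They were chosen by name, and every probe set annotated to 1 of the 10 symbols was taken from the mouse and the rat array. That gave 37 probe sets of 76079 in all, 23 of 45037 in mice and 14 of 31042 in rats, and all 10 genes had at least 1 in each species. Liver RNA came from male animals aged 20 weeks, collected 6 hours after an intraperitoneal injection, in order to see genes that respond to leptin before feeding and weight do. The mouse groups, on a C57/BL6J background, were Lepob/Lepob mice given recombinant murine leptin, Lepob/Lepob mice given saline and WT littermates given saline. The rat groups, on an F344/NSlc background, were Lepmkyo/Lepmkyo rats given the same leptin, Lepmkyo/Lepmkyo rats given saline and WT littermates given saline. The rat titles spell the genotype Lepmyo/Lepmkyo and the source label of the rats says Lepob; the descriptions' Lepmkyo was used. Animals without leptin are known to overeat and grow obese, so genotype and obesity cannot be told apart here. Each group was 1 array, with no statement of how many animals it held, and therefore no test between groups and no p-value was possible.

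NRF2 is a transcription factor that its partner KEAP1 holds in the cytoplasm and marks for degradation, and oxidants or electrophiles that modify KEAP1 let NRF2 build up, enter the nucleus and pair with a small MAF protein. The pair binds antioxidant response elements and induces genes of glutathione and thioredoxin metabolism, quinone reduction and heme breakdown, while BACH1 occupies some of the same elements as a repressor. In liver these genes are known for their part in handling drugs and reactive metabolites, and catalase and the mitochondrial superoxide dismutase remove oxidants that fatty acid oxidation and respiration produce.

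The core letters of the antioxidant response element are shown here because many of the 10 genes are known NRF2 targets. RefSeq promoter windows on mouse build GRCm38.p6, each from 250 bases before to 50 bases after a transcription start, were found for 7 of the 10 genes (Nfe2l2, Nqo1, Gclm, Txnrd1, Srxn1, Cat and Sod2), 9 windows in all. The motif TGACNNNGC, searched on both strands, occurred in 12.4% of all 32851 windows and in 4 of the 9, those of Nfe2l2, Srxn1, Gclm and 1 of 3 windows of Txnrd1. None of the 4 matches overlapped the AP-1 letters TGACTCA. The matches are in capitals, 5′ to 3′ along the gene's own strand, and the last 3 read as the reverse complement of the motif.
Nfe2l2, chr2:75704865-75704913, minus strand, motif starting 240 bases before the start: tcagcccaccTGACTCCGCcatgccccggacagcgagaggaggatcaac
Gclm, chr3:122245393-122245461, plus strand, motif starting 134 bases before the start: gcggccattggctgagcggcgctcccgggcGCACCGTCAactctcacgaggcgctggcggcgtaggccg
Txnrd1, chr10:82859084-82859152, plus strand, motif starting 92 bases before the start: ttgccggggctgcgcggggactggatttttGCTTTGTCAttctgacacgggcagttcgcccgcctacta
Srxn1, chr2:152105542-152105570, plus strand, motif starting at base 29 of the transcript: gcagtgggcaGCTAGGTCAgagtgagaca
A match describes letters only, and a window without one, such as that of Nqo1, says nothing of elements farther away.

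Values are MAS5 signals on a linear scale, and a difference is the log2 ratio of the signals of 2 arrays. Signals under the platform's median, 82.7 in mice and 97.0 in rats, were raised to that floor, so a ratio with an array under it is a bound. A gene with several probe sets is represented by the brightest. The only measure of error is the spread of log2 ratios between probe sets of the same gene on the same 2 arrays. This spread covers disagreement between probe sets, and neither error common to a whole array nor variation between animals. Its pooled SD was 0.45 in the mouse genotype comparison, 0.26 in the mouse leptin comparison, 0.44 in the rat genotype comparison and 0.25 in the rat leptin comparison. Of the members' probe sets, 21 of 23 in mice and 12 of 14 in rats were at or above the floor on all 3 arrays. Hepatocyte markers were at or above it on every array, 9 of 9 in mice and 10 of 10 in rats. In bulk liver, fewer cells of a type and less RNA per cell cannot be told apart.

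**Figure D1:**
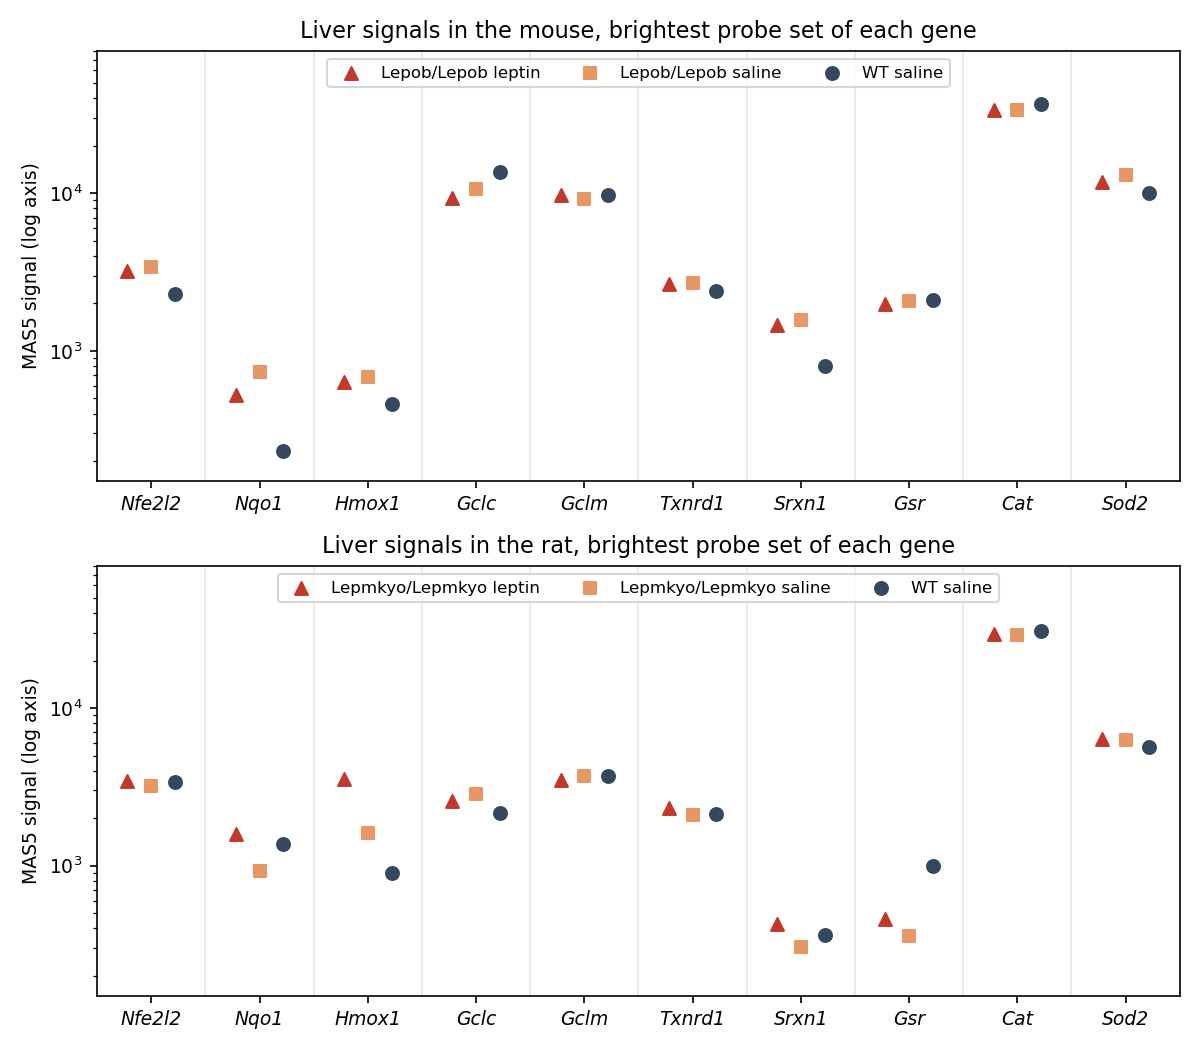
MAS5 signal of the brightest probe set of each gene (vertical axis, log scale) on the 3 mouse arrays and the 3 rat arrays, 1 symbol an array. In mice the Nqo1 signals of both Lepob/Lepob arrays, 524.1 with leptin and 729.6 with saline, lie above the 230.4 of WT, and in rats the Hmox1 signal is highest with leptin (3563.6).

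In saline-injected Lepob/Lepob mouse liver, the quinone reductase Nqo1 and the sulfiredoxin Srxn1 had higher signals than in WT liver, Nfe2l2 and Hmox1 were higher by a smaller amount, and the genes of glutathione synthesis, catalase and Gsr were not higher on their brightest probe sets. Of the 10 genes, 2 were at least 1.5-fold higher, beside 12.3% of all 11956 genes measured, and 0 were at least 1.5-fold lower, beside 12.6%. At 2-fold the counts were 1 higher, beside 4.46% of all genes, and 0 lower, beside 3.71%. The median log2 ratio of the 10 was 0.27, against -0.03 over all genes.

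Nfe2l2, the transcription factor, had a signal of 3395.1 in saline Lepob/Lepob liver and 2280.2 in WT liver on its brightest probe set, a 1.49-fold difference. Its other probe set gave 714.0 and 131.5, 5.43-fold higher in the mutant. Both lie above WT by more than the spread between probe sets, but they differ in size from each other by a log2 distance that also exceeds it.

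Nqo1, which reduces quinones by transfer of a pair of electrons, gave 729.6 in saline Lepob/Lepob liver and 230.4 in WT liver, 3.17-fold higher (log2 ratio 1.66), on its single probe set. With the floor at the 75th percentile of signals the log2 ratio is 0.92, because the WT signal then lies under the floor. Srxn1, which restores overoxidised peroxiredoxins, gave 1576.9 and 798.9 on its brightest probe set, 1.97-fold higher in the mutant. That probe set carries the suffix for sequence shared between transcripts, and the other 3 had log2 ratios of 0.10, 0.19 and -0.23, within the spread around 0. The higher Srxn1 signal therefore rests on 1 of 4 probe sets. Hmox1, the inducible heme oxygenase, gave 680.0 in saline Lepob/Lepob liver and 459.7 in WT liver, 1.48-fold higher on its only probe set.

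Gclc, the catalytic subunit of glutamate-cysteine ligase, the first enzyme of glutathione synthesis, gave 10697.3 in saline Lepob/Lepob liver and 13565.6 in WT liver. Its log2 ratio of -0.34, and -0.14 on the other probe set, were within the spread. Gclm, the modifier subunit, had log2 ratios of -0.10 and 0.17. Gsr, the glutathione reductase, gave 2080.4 in mutant and 2108.9 in WT liver on its brightest probe set, and 1295.5 and 2046.1 on the other, 1.58-fold lower, so its probe sets differ by more than the spread.

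Txnrd1, the cytosolic thioredoxin reductase, gave 2681.3 in saline Lepob/Lepob liver and 2397.8 in WT liver, a log2 ratio of 0.16, while a dim probe set was at least 1.39-fold lower and the remaining one was under the floor on all arrays. Cat, the peroxisomal catalase, gave 33536.7 and 36987.8, and its probe sets had log2 ratios of -0.14 and -0.33. Sod2, the mitochondrial superoxide dismutase, gave 13086.8 in mutant and 10036.1 in WT liver, a log2 ratio of 0.38, and its other 3 probe sets ranged from -0.11 to 0.22. Over the 8 genes with several measured probe sets, the direction was the same on all of them for 4 (Nfe2l2, Gclc, Gsr and Cat) and mixed for the other 4.

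The direction of the genes near 0 depends on scaling in this comparison. The median signal was 77.0 on the saline Lepob/Lepob array and 91.9 on the WT array, and scaling the arrays to the same median moved the median of all genes to 0.22. Then 9 of the 10 genes were above 0 instead of 6, Gclm, Gsr and Cat among them, and 5 were at least 1.5-fold higher. The distance between the median of the 10 genes and that of all genes was 0.30 as deposited and 0.31 after this scaling. Scaling shifts nearly all ratios by the same amount, so this distance could hardly change. It was 0.20 after quantile normalization, 0.16 with the median over probe sets and 0.17 without probe sets of shared sequence. Of all genes at least 2-fold apart, 54.6% were higher in the mutant as deposited, 65.4% after quantile normalization and 80.4% after scaling to the median, and of those at least 1.5-fold apart 49.5%, 59.9% and 78.9%.

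**Figure D2:**
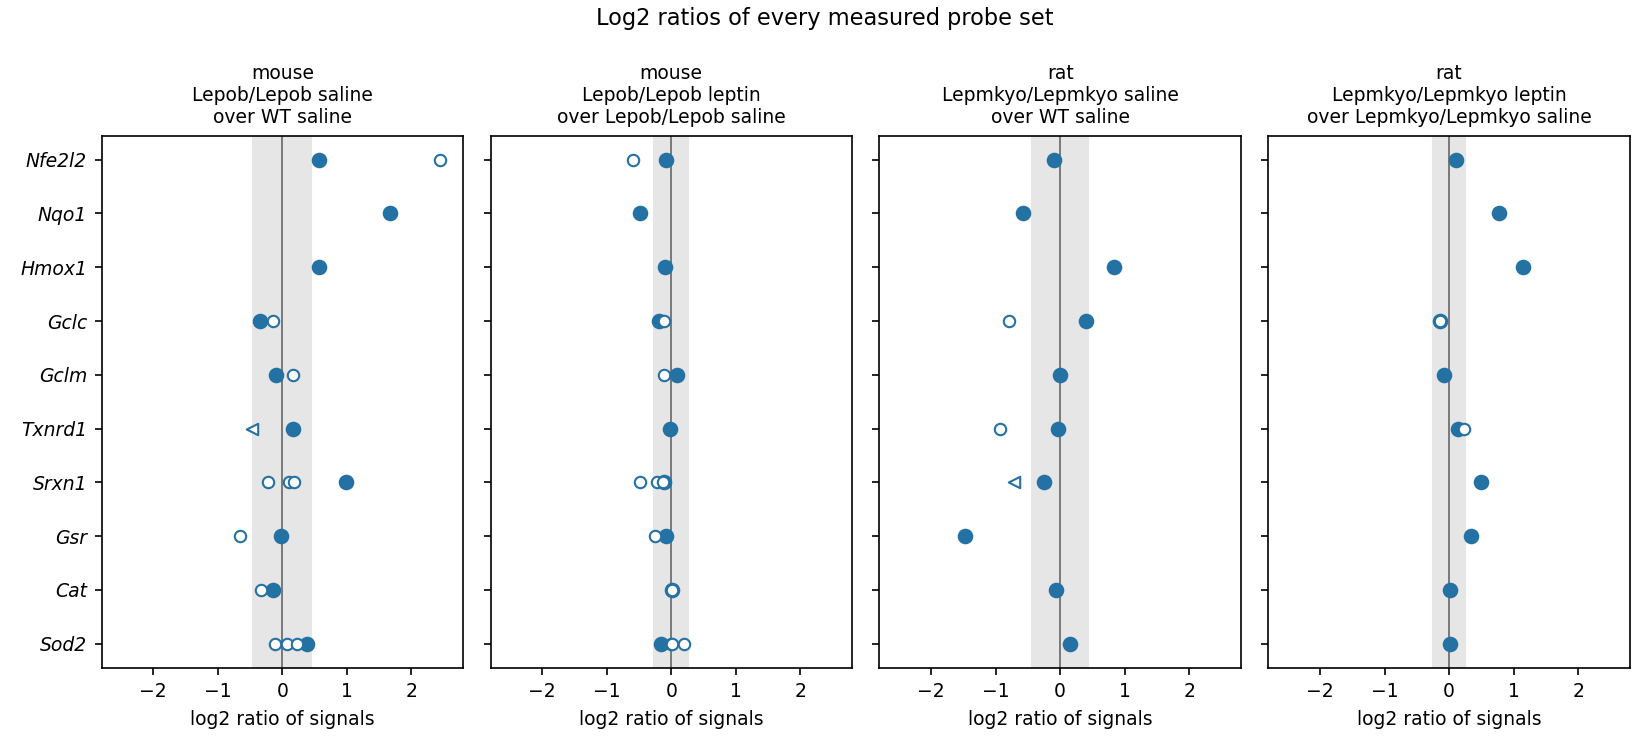
Log2 ratio of signals (horizontal axis) of every measured probe set of the 10 genes in 4 comparisons, with the brightest probe set filled, the others open, bounds as arrowheads and the pooled SD between probe sets of a gene in grey. In mice the probe sets of Nfe2l2 lie at 0.57 and 2.44, and in rats Gsr lies at -1.47.

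In saline-injected Lepmkyo/Lepmkyo rat liver, the glutathione reductase Gsr was lower than in WT liver and Hmox1 was higher, Nqo1 was lower by a smaller amount, and the brightest probe sets of the other 7 genes were within the spread. Of the 10 genes, 1 was at least 1.5-fold higher, beside 10.2% of all 9817 genes measured, and 1 at least 1.5-fold lower, beside 5.92%. At 2-fold, 0 were higher, beside 2.99%, and 1 was lower, beside 1.45%. The median log2 ratio of the 10 was -0.05, against 0.04 over all genes.

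Gsr gave 360.0 in saline Lepmkyo/Lepmkyo liver and 998.5 in WT liver, 2.77-fold lower on its only probe set. Hmox1 gave 1606.5 in saline mutant and 902.1 in WT liver, 1.78-fold higher. Nqo1 gave 922.3 and 1368.8, 1.48-fold lower in the mutant, opposite in direction to the mouse. These 3 genes have 1 probe set each on the rat array, so their values have no second reading.

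Gclc had a log2 ratio of 0.41 on its brightest probe set, at 2861.9 in saline Lepmkyo/Lepmkyo and 2161.1 in WT liver, and -0.80 on the other, at 719.1 and 1248.3. Txnrd1 had -0.03 on the brightest, at 2091.2 and 2129.6, and -0.93 on the other, at 572.9 and 1090.6. In both genes the dimmer probe set was lower in the mutant by more than the spread and the brighter one was not. Srxn1 gave 304.8 in saline mutant and 363.3 in WT liver (log2 ratio -0.25), and a second probe set was at least 1.64-fold lower, at 48.6 and 159.3. Nfe2l2, Gclm, Cat and Sod2, each with 1 probe set, had log2 ratios between -0.10 and 0.15, and their signals in saline mutant and WT liver were 3181.9 and 3409.1 for Nfe2l2 and 29237.6 and 30696.6 for Cat.

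At 6 hours after leptin, the mouse liver signals of the 10 genes lay close to those after saline, with Nqo1 as the one exception on a brightest probe set. None of the 10 was at least 1.5-fold higher, beside 2.18% of all 11536 genes, or at least 1.5-fold lower, beside 2.21%, and none was 2-fold apart, beside 0.182% higher and 0.243% lower. The median log2 ratio of the 10 was -0.08, against -0.0022 over all genes. Nqo1 gave 524.1 in leptin-injected and 729.6 in saline-injected Lepob/Lepob liver, 1.39-fold lower (log2 ratio -0.48). The dimmer probe set of Nfe2l2 gave 474.2 and 714.0, 1.51-fold lower, while the brighter one gave 3221.0 and 3395.1. Srxn1 had log2 ratios from -0.49 to -0.12 over its 4 probe sets, the lowest at signals of 490.0 with leptin and 687.3 with saline. The other 7 genes had log2 ratios between -0.19 and 0.09 on their brightest probe sets.

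In leptin-injected Lepmkyo/Lepmkyo rat liver, Hmox1 and Nqo1 had higher signals than in saline-injected mutant liver, and Srxn1 and Gsr were higher by smaller amounts. Of the 10 genes, 2 were at least 1.5-fold higher, beside 2.12% of all 9705 genes measured, and 0 lower, beside 2.59%. At 2-fold, 1 was higher, beside 0.237%, and 0 lower, beside 0.278%. The median log2 ratio of the 10 was 0.13, against 0.01 over all genes, but with the floor set at the 75th percentile of signals, which left out Srxn1, it was 0.02 for 9 genes and 0.02 over all genes.

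Hmox1 gave 3563.6 in leptin-injected and 1606.5 in saline-injected Lepmkyo/Lepmkyo liver, 2.22-fold higher (log2 ratio 1.15). Its signal with leptin was also 3.95-fold that of WT saline liver, 902.1. Nqo1 gave 1578.6 with leptin and 922.3 with saline, 1.71-fold higher (0.78), and WT saline liver gave 1368.8. Of the 3 rat arrays, the leptin array was therefore the highest for both genes and the saline mutant array the lowest for Nqo1. Srxn1 gave 428.8 and 304.8, 1.41-fold higher on its brightest probe set, with the other probe sets under the floor on both arrays. Gsr gave 457.7 with leptin and 360.0 with saline, 1.27-fold higher, against 998.5 in WT liver. The log2 ratios of Nfe2l2 (0.11), Txnrd1 (0.15), Gclc (-0.15), Gclm (-0.07), Cat (0.01) and Sod2 (0.02) were within the spread. The genotype and leptin comparisons of a species share the saline mutant array, so opposite signs in the 2, as for Nqo1 in both species, are not independent.

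**Figure D3:**
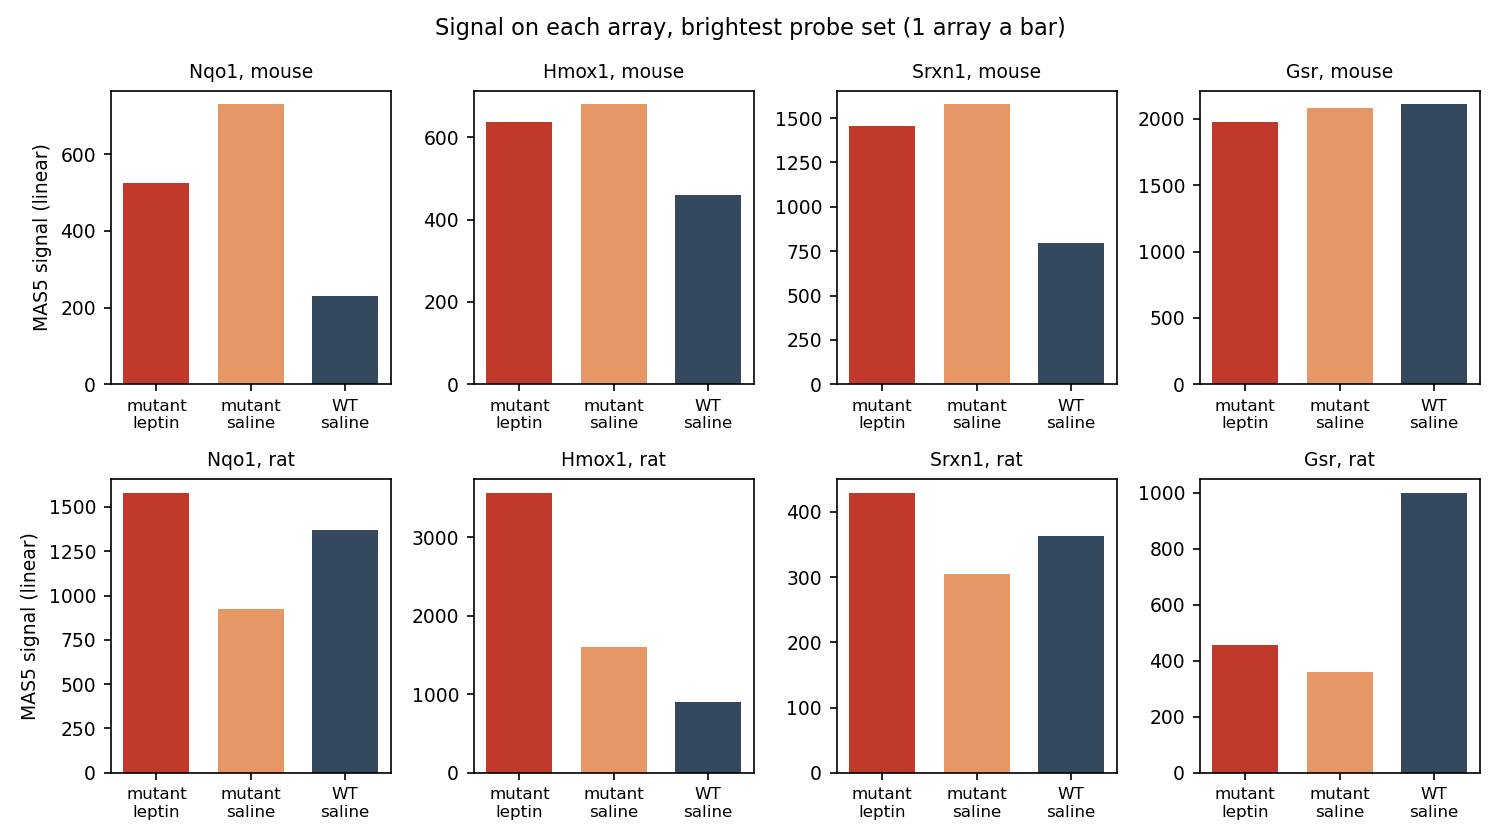
MAS5 signal (vertical axis, linear, from 0) of Nqo1, Hmox1, Srxn1 and Gsr on each array, brightest probe set, mouse above and rat below, 1 array a bar. Rat Nqo1 is lowest on the saline mutant array (922.3), and mouse Nqo1 is highest there (729.6).

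Of 15 other genes of NRF2 control, 2 were at least 1.5-fold higher in saline Lepob/Lepob mouse liver, beside 12.3% of all genes, and 2 lower, beside 12.6%. At this limit the shares were close to those of all genes. The small MAF partners Mafk and Maff were the 2 higher, and Osgin1, an NRF2 target that restrains growth, and Btrc, of an NRF2 ubiquitin ligase, the 2 lower. Mafk gave 565.1 in mutant and 245.9 in WT liver, 2.30-fold higher, and Maff was at least 2.26-fold higher, at 187.1 against 80.3. Osgin1 gave 1574.6 and 6155.3, 3.91-fold lower. Btrc had a log2 ratio of -0.59, just past the limit, and another of its probe sets had 0.64. At 2-fold the list had 2 of 15 higher, beside 4.46% of all genes, and 1 lower, beside 3.71%. The brightest probe set of Keap1, which targets NRF2 for degradation, had a log2 ratio of -0.01 and another had -1.99. Bach1, the repressor, had -0.33 and 0.08, and Mafg 0.13 and -0.08.

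In rats, 0 of 12 measured genes of this list counted as 1.5-fold apart between saline mutant and WT liver on their brightest probe sets. Of all genes 10.2% were higher and 5.92% lower, and Bach1 was under the floor on all arrays. Dimmer probe sets did not all follow: Keap1 had log2 ratios of 0.08 on the brightest and -1.39 on the other, and Mafg 0.20 and -0.85. Maff was at least 1.45-fold higher in saline mutant rat liver, at 140.4 against 7.4. As a bound, this value does not place Maff under 1.5-fold. With leptin, 1 of 15 was 1.5-fold lower in mice, beside 2.21% of all genes: Mafk, at 356.9 with leptin and 565.1 with saline (1.58-fold lower). In rats 0 of 12 were 1.5-fold apart after leptin, beside 2.12% of all genes higher and 2.59% lower.

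Of 21 measured phase II enzymes and exporters known as NRF2 targets, 9 were at least 1.5-fold higher in saline Lepob/Lepob than in WT liver, beside 12.3% of all genes, and 7 of them at least 2-fold, beside 4.46%. None was at least 1.5-fold lower, beside 12.6%, but 3 of the 21 were below 0, Gstp1 (log2 ratio -0.58), Nqo2 (-0.47) and Mgst1 (-0.40). The median log2 ratio was 0.51, against -0.03 over all genes. The carbonyl reductase Cbr3 gave 1145.4 in mutant and 100.6 in WT liver, 11.4-fold higher. The microsomal glutathione transferase Mgst3 gave 3895.6 and 553.8, 7.03-fold higher, Gstm3 12894.6 and 2869.6, 4.49-fold higher, and the efflux pump Abcc4 648.6 and 165.8, 3.91-fold higher. Glutathione transferases of 1 class share sequence, so a probe set of Gstm3 can bind relatives. In rats the same list had 4 of 19 at least 1.5-fold higher, beside 10.2% of all genes, 2 lower, beside 5.92%, and a median of -0.07, against 0.04 over all genes. The difference between the species was not tested. There Gstp1 was 2.74-fold and Gstm3 2.43-fold higher in saline mutant than in WT liver, Akr1b8 1.60-fold higher, and the exporter Abcc2 1.93-fold lower. None of the list was 1.5-fold apart after leptin, with 21 measured in mice, beside 2.18% of all genes higher and 2.21% lower, and 20 in rats, beside 2.12% and 2.59%.

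The list of NADPH supply had medians above those of all genes in both genotype comparisons. NADPH is consumed by Nqo1, Gsr and Txnrd1. Not every enzyme of the list makes it: Tkt and Taldo1 are pentose phosphate enzymes that do not. In mice 4 of 8 were at least 1.5-fold higher in saline mutant than in WT liver, beside 12.3% of all genes, and 1 lower, beside 12.6%, with a median of 0.58. In rats 5 of 8 were higher, beside 10.2%, and 0 lower, beside 5.92%, with a median of 0.70. Pgd, of the pentose phosphate pathway, gave 2721.4 in mutant and 1478.5 in WT mouse liver (1.84-fold higher). This mouse reading comes from a probe set with shared sequence, and the remaining mouse ones of Pgd had log2 ratios from 0.12 to 0.83. In rat liver Pgd gave 3974.0 and 1651.7 (2.41-fold higher). Idh2, also among the 4 in mice, had log2 ratios of 0.64 and -0.03 on its 2 probe sets, so its call rests on 1 of them. Taldo1 was 1.55-fold higher in mice and 2.23-fold in rats. Nnt, the mitochondrial transhydrogenase, was 2.22-fold higher in mice on its brightest probe set, of the kind with shared sequence. Others were at log2 ratios of -0.10 and 0.84. Neither Nnt activity nor NADPH was measured. H6pd was 1.61-fold lower in mice. After leptin 0 of 8 were 1.5-fold apart in either species. Of all genes 2.18% were higher and 2.21% lower in mice, and 2.12% and 2.59% in rats.

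Of 12 measured genes of glutathione synthesis and recycling in mice, 3 were at least 1.5-fold higher in saline mutant than in WT liver, beside 12.3% of all genes, and 0 lower, beside 12.6%. The glutaredoxin Glrx was 2.26-fold higher, at 2631.5 against 1162.7, Gpx7 1.86-fold and the lipid peroxide reductase Gpx4 1.73-fold. In rats 5 of 13 were higher, beside 10.2%, and 0 lower, beside 5.92%. The peroxidase Gpx2 was 2.75-fold higher, at 469.6 against 170.6, the glutathione-degrading Chac1 2.28-fold, the glutathione synthetase Gss 2.11-fold, at 2311.5 against 1097.5, and Ggt1 at least 1.84-fold. The mouse Gss had log2 ratios of 0.22 and 1.11 on its 2 probe sets, and the cystine transporter Slc7a11 was under the floor on all 6 arrays on its brightest probe set. Gpx1, the abundant cytosolic glutathione peroxidase, had log2 ratios of -0.27 in mice and -0.10 in rats. With leptin, Gpx7 was 1.87-fold lower in mice, the only 1 of 12 past 1.5-fold, beside 2.21% of all genes, and Chac1 and Ggt1 were 1.81-fold and 1.61-fold lower in rats, 2 of 13, beside 2.59%.

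**Figure D4:**
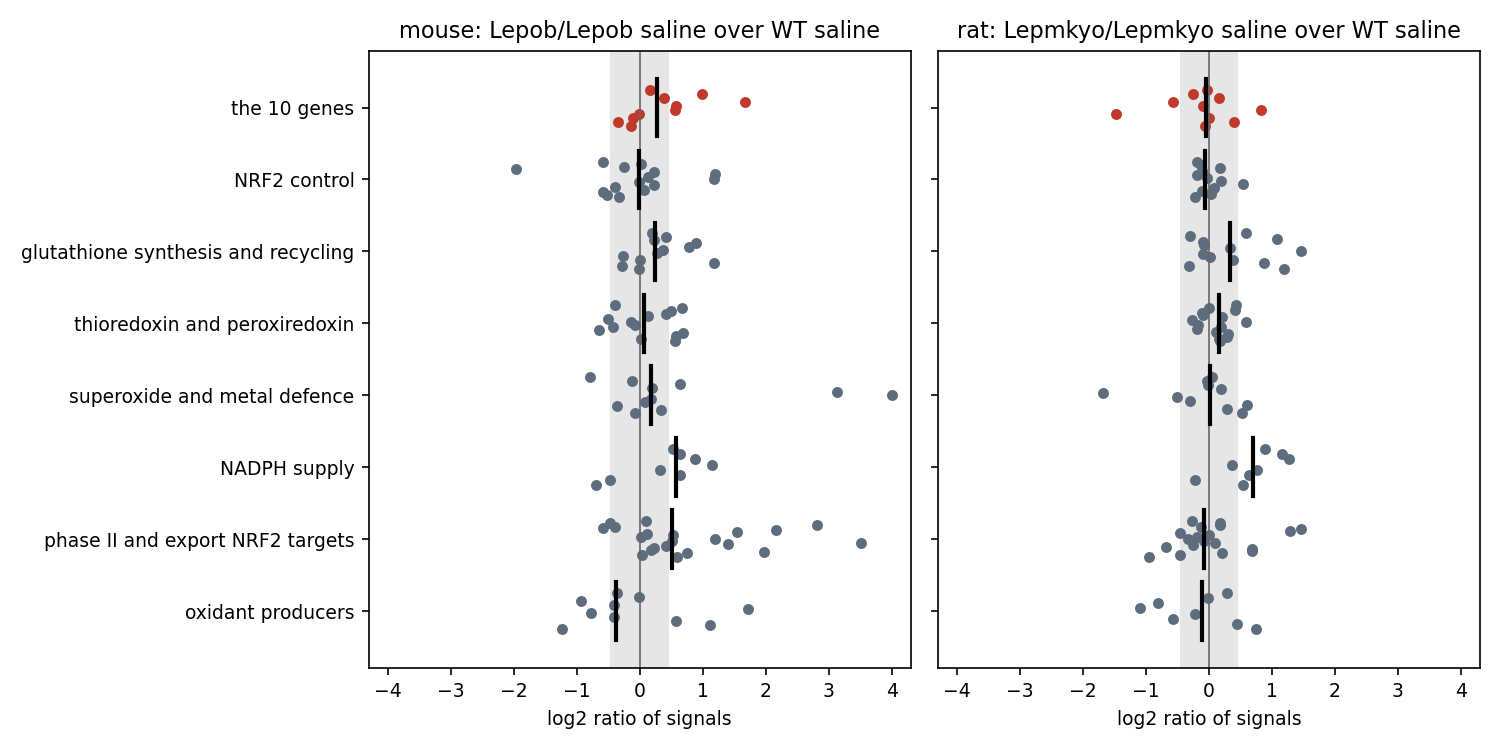
Log2 ratio of signals of saline mutant over WT saline liver (horizontal axis) for the 10 genes (red) and the genes of 7 related lists (grey), 1 point a gene, with a black bar at each list's median and the pooled SD between probe sets in grey. The NADPH supply list has its median at 0.58 in mice and 0.70 in rats, and the 10 genes at 0.27 and -0.05.

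Thioredoxin and peroxiredoxin genes had 2 of 14 members past 1.5-fold upward in saline Lepob/Lepob mouse liver, beside 12.3% of all genes, and 1 downward, beside 12.6%, shares near or under those of all genes. They were Prdx3, the mitochondrial peroxiredoxin, 1.62-fold higher, Txnrd2, 1.59-fold higher, and Prdx4 of the endoplasmic reticulum, 1.57-fold lower. For Txnrd2 the other measured probe sets had log2 ratios from -0.45 to 0.33. In rats 1 of 16, Sesn1, was higher at 1.51-fold, beside 10.2% of all genes, with another probe set at -0.63. After leptin Txnrd3 was 1.95-fold lower in rats, 1 of 16, beside 2.59%. In mice 0 of 14 were 1.5-fold apart after leptin, beside 2.18% of all genes higher and 2.21% lower. In the list of superoxide and metal defence, 3 of 11 were higher by 1.5-fold or more in mice, beside 12.3%, and 1 lower, beside 12.6%. For the metallothionein Mt1 the brightest probe set, of the kind with shared sequence, gave 16.0-fold higher, and the other a log2 ratio of 2.39. Mt2 was 8.75-fold and the heme transporter Slc48a1 1.56-fold higher, and the extracellular Sod3 was 1.73-fold lower. In rats 1 of 10 was higher, beside 10.2%, the copper chaperone Ccs at 1.52-fold, and 1 lower, beside 5.92%, Mt2A at 3.21-fold, with signals of 4436.9 in saline mutant and 14254.9 in WT liver. With leptin Mt2A gave 6853.2 against 4436.9 with saline, 1.54-fold higher, 1 of 10 beside 2.12%. Sod1, the cytosolic superoxide dismutase, had log2 ratios of -0.13 in mice and -0.03 in rats between saline mutant and WT liver, with the other mouse probe sets between -0.41 and 0.81.

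Of the genes that produce oxidants, 2 of 10 were higher by 1.5-fold or more in saline Lepob/Lepob mouse liver, beside 12.3% of all genes, and 3 lower, beside 12.6%. In saline Lepmkyo/Lepmkyo rat liver 1 of 8 was higher, beside 10.2%, and 2 lower, beside 5.92%. The peroxisomal hydroxyacid oxidase Hao2 was at least 3.30-fold higher in mice and 2.13-fold lower in rats. Cyba, a subunit of the phagocyte NADPH oxidase, was 2.15-fold higher in mice and 1.68-fold higher in rats, and Nox4 was 1.92-fold lower in mice and at least 1.75-fold lower in rats. Aox3 was 2.36-fold lower in mice. With leptin, Hao2 was 1.54-fold lower in mice, 1 of 10 beside 2.21%.

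Hmox1 is also known from macrophages that break down red blood cells, so the markers of those cells are given beside it. The summed signal of the 13 macrophage markers was 32386.3 in saline Lepob/Lepob and 24186.2 in WT mouse liver, with 4 at least 1.5-fold higher, beside 12.3% of all genes, and 3 lower, beside 12.6%. Of 13 such markers, 10 were on the rat array, and their sum was 14709.2 in saline Lepmkyo/Lepmkyo and 13223.0 in WT liver. Of 9 measured, 0 were 1.5-fold apart, beside 10.2% of all genes higher and 5.92% lower. With leptin the rat sum was 16011.4, against 14709.2 with saline. Again 0 of 9 were 1.5-fold apart, beside 2.12% of all genes higher and 2.59% lower. Hmox1 was 2.22-fold higher in the same comparison. Spic, a factor of red pulp macrophages, was under the floor on all rat arrays. Of 6 red blood cell markers, 3 were measured in rats, with sums of 20153.3 in leptin mutant, 19198.6 in saline mutant and 8639.4 in WT liver. The hemoglobin gene Hbb made up most of these sums, at 18750.1 in saline mutant and 8301.4 in WT liver. Between those arrays 2 of 3 were at least 1.5-fold higher, beside 10.2% of all genes, and 1 was below 0. In mice 1 of 3 on the array reached the floor, with sums of 1273.8 in saline mutant and 2790.8 in WT liver. Neutrophil markers summed to 1932.4 in leptin-injected and 828.4 in saline-injected Lepob/Lepob liver. Stellate cell markers summed to 22577.5 in saline mutant and 13236.1 in WT mouse liver, where 5 of 9 were 1.5-fold higher or more, beside 12.3%, and to 8009.7 and 2867.5 in rat liver, with 4 of 9, beside 10.2%. Hepatocyte markers summed to 235386 in saline mutant and 303178 in WT mouse liver, and to 252125 and 300152 in rat liver. The part of these cell types in the results was not tested.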

How the data were processed

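Liver total RNA, a Trizol extract, was labelled with biotin, per the labels' protocols. The deposited values are signal intensities on a linear scale. The authors computed them with MAS5, whose version is not given in the sources used here, per the submitters' processing notes. The trimmed mean was 495 to 496 on all 6 arrays, so each array had been scaled to 1 level. Gene symbols came from the platform annotation, and mouse symbols were updated by gene identifier (34741 of 34945 probe sets with 1 symbol). Only probe sets with exactly 1 symbol were used. Control probe sets were not used here, so RNA quality was not checked. A gene needed 1 of 2 arrays at the floor, the median of all values, and counted at 1.5-fold and 2-fold. The 10 genes and all lists were chosen with earlier results of these data known. Named genes were the 10, 9 set partners, and up to 4 per list and comparison past 1.5-fold with the largest ratios. Hmox1's cell markers are given as sums, apart from Spic and Hbb. Slc7a11 is among the partners. Calculations were tested on simulated data. Python 3.11.15, numpy 2.4.6, pandas 2.3.3 and matplotlib 3.10.9 were used. Alternatives were 2 other floors, quantile normalization, scaling to the median, the median over probe sets, and omitting shared probe sets (_s_ and _x_ in their name). Precision is limited by the number of arrays.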

Additional observations from a re-analysis of the deposited data

Results flagged for a closer look

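On brightest probe sets, Nqo1 was the 1 gene of the 10 whose signal lay on opposite sides in both species by more than the spread between probe sets of a gene. The share of all genes that pass this rule was not counted, so whether Nqo1 is unusual cannot be said. Between saline mutant and WT liver the Nqo1 log2 ratio was 1.66 in mice and -0.57 in rats. Between leptin-injected and saline-injected mutant liver it was -0.48 in mice and 0.78 in rats. A dimmer mouse probe set of Srxn1 also lay opposite to the rat after leptin, at -0.49 in mice against 0.49 in rats, while its brightest mouse probe set was at -0.12. Between saline mutant and WT liver, the brightest mouse probe set of Srxn1 was at 0.98. A dim rat one was at -0.72 or lower, while the brightest rat one was at -0.25. Each Nqo1 value compares 1 array with 1 array on a single probe set, the saline mutant array enters both comparisons of a species, and the difference between the species was not tested.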

How the results depend on the processing

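No paired analysis was possible because each group is 1 array, and no replicate could be left out. The median log2 ratio of the measured genes among the 10 kept its sign in the 6 alternatives, between 0.09 and 0.53 (mouse genotype), -0.12 and -0.08 (mouse leptin), -0.15 and -0.02 (rat genotype) and 0.02 and 0.19 (rat leptin). In rats the 75th percentile as floor left 9 of them, without Srxn1, whose median after leptin lay -0.0014 from that of all genes, instead of 0.12. In the mouse genotype comparison, the count of the 10 genes at least 1.5-fold higher was 5 with arrays scaled to the same median and 1 without probe sets that can bind several transcripts, instead of 2. The count at least 2-fold higher was 0 with the floor at the 75th percentile and 2 with quantile normalization, median scaling or the median over probe sets, instead of 1. In the rat genotype comparison 2 were at least 1.5-fold lower after quantile normalization, instead of 1. No gene past 1.5-fold turned its direction, but mouse Srxn1 was at 0.15 (median over probe sets) and 0.10 (without shared probe sets), and rat Gsr after leptin at 0.02 with the higher floor. Mouse Nfe2l2 was at 1.51, and rat Gclc and Txnrd1 at -0.20 and -0.48 between genotypes, as the median over their probe sets. For all genes, the floor set the share called: at the 25th percentile 14.4% (mouse genotype) and 9.06% (rat genotype) were 2-fold apart, and 5.35% (mouse leptin) and 4.02% (rat leptin), where the 75th percentile gave 0.128% and 0.220% after leptin. At 1.5-fold after leptin these floors gave 16.0% and 0.808% in mice and 13.9% and 1.71% in rats. In the rat leptin comparison 59.2% of the genes 2-fold apart were higher after scaling to the median, instead of 46.0%, and 59.5% at 1.5-fold instead of 45.1%. The cause of these shifts was not tested beyond the floor and the probe sets named. Signals near the floor limit the dim probe sets.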
